A study of Mus musculus with 60 samples.

Results

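Marker genes of the choroid plexus were followed across 60 Illumina MouseWG-6 arrays of mouse striatum. The members were 10 genes taken by symbol: Ttr, Enpp2, Kl, Folr1, Aqp1, Clic6, Kcnj13, Otx2, Sostdc1 and Cldn2. Of these, 8 genes had a probe paired with their symbol in the annotation used here, with 13 probes in all among the 45281 probes of the array and 19057 gene symbols. No probe carried the symbol Enpp2 or Kcnj13, and neither gene was analysed here. For each gene the probe with the highest mean signal over the arrays was read, which for Aqp1 was ILMN_2756486, and further probes are given once.

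The mice were male C57BL/6J animals of 6 to 10 weeks according to the labels. They received 1 intraperitoneal injection of saline, the tricyclic imipramine (10 mg/kg), the serotonin reuptake inhibitor fluoxetine (20 mg/kg) or the atypical antidepressant tianeptine (20 mg/kg), or were left naive. Striatum, here the rostral caudate putamen together with the nucleus accumbens, was taken at 1, 2, 4 and 8 h, which gave 20 groups of 3 arrays. Each array carried the combined RNA of 2 mice, so that a value belongs to a pool and the p-values measure the spread between pools.

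The choroid plexus is a folded sheet of secretory epithelium that hangs in the brain ventricles and makes most of the cerebrospinal fluid. In the forebrain it lies in the lateral ventricle, whose lateral wall is the medial face of the striatum. The striatum itself has no such epithelium, and its neurons are mainly medium spiny neurons. Of the medium spiny neuron markers, Ppp1r1b and Rgs9 were bright. Ppp1r1b encodes the phosphatase inhibitor DARPP-32, and Rgs9 is a regulator of G protein signalling. Rgs9 had a mean log2 signal of 14.94 and Ppp1r1b stood slightly above it. Levels of the other markers are not given. The deposited log2 signals had array medians of 6.71 to 8.76 and were quantile normalised to a common median of 7.57, and arrays of 1 group correlated at r = 0.977 to 0.993 over all probes.

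Ttr encodes transthyretin, the carrier of thyroxine and retinol-binding protein that the choroid plexus secretes into the cerebrospinal fluid. Its normalised log2 signal ran from 9.13 to 15.86 over the 60 arrays with a median of 11.38, a range of 6.73 log2 units or 106-fold. The SD around the 20 group means was 1.75 log2 units, above that of 99.998% of all probes, and the median probe had 0.151. The highest Ttr values lay close to the highest normalised signal of any probe, 16.01, so that differences among them may be compressed. Ttr stood above 14 on 8 arrays and above 15 on 5 arrays, and it was at or below 12 on 40 arrays. In a bulk sample, fewer choroid plexus cells and less RNA per cell cannot be told apart, here and in all values that follow.

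The spread of Ttr lay mostly inside groups. In 14 of 20 groups the 3 arrays spanned more than 2 log2 units. The widest group was fluoxetine at 1 h, with 9.89, 12.70 and 15.79, a range of 5.89 log2 units. Tianeptine at 1 h followed with 10.04, 11.22 and 15.86, and naive mice at 1 h had 9.13, 10.55 and 14.41. In each of these groups 1 pool was high and the others were near or below the median over all arrays, except the third fluoxetine pool. The narrowest group was tianeptine at 2 h, with 10.64, 10.44 and 11.11, all below the median. Group membership accounted for 0.267 of the Ttr variance, against a median of 0.290 over all probes, and chip for 0.376, against 0.259.

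**Figure D1:**
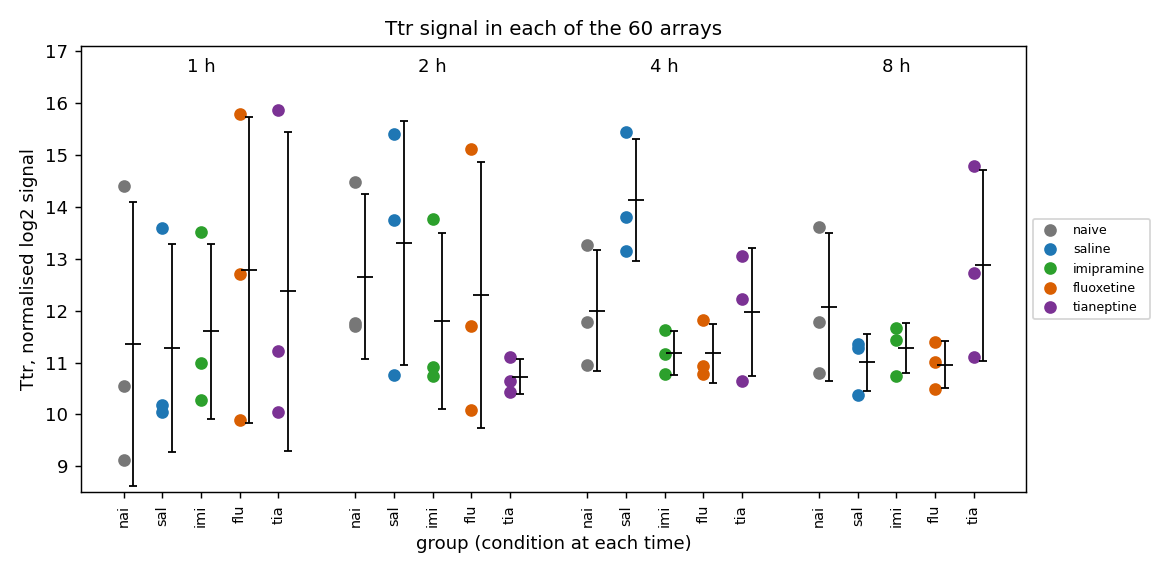
Normalised log2 signal of Ttr in every array, with 1 point per array (a pool of 2 mice), the groups along the x axis by time and condition, and the black marks giving the mean and SD of 3 arrays. Single high pools between 14 and 16 occur in naive, saline, fluoxetine and tianeptine groups, while the 12 imipramine arrays end at 13.76.

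By group, mean Ttr was highest in saline at 4 h (14.13 ± 1.17, SD, n = 3) and in saline at 2 h (13.30 ± 2.36), and lowest in fluoxetine at 8 h (10.96 ± 0.46) and tianeptine at 2 h (10.73 ± 0.34). Each group in this order of 20 differed from its neighbour by less than the SD of the wider of the pair. Over all times the condition means were 12.43 ± 1.99 for saline, 12.02 ± 1.63 for naive, 11.99 ± 1.82 for tianeptine, 11.81 ± 1.87 for fluoxetine and 11.47 ± 1.09 for imipramine (SD, n = 12 each). All 5 conditions overlapped. By time, the means were 11.88, 12.16, 12.09 and 11.64 at 1, 2, 4 and 8 h, with SDs of 1.21 to 2.24 (n = 15 each).

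Chips also differed in Ttr. Chip means ran from 10.63 on chip 2 to 13.44 on chip 8, and 6 arrays of chip 9 spanned 10.04 to 15.43. Chips 2, 3 and 10 held no array above 12, with highest values of 11.70, 11.22 and 11.40. The arrays carrying replicate numbers 1, 2 and 3 in their titles had mean Ttr signals of 10.81, 12.10 and 12.91 (n = 20 each), with overlapping ranges of 9.13 to 13.81, 10.44 to 15.79 and 10.19 to 15.86. Replicate number and chip go together in part, and their share in the spread was not tested.

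The other 7 genes are described by role. Among the transporters and channels, Clic6, a chloride intracellular channel protein of secretory epithelia, ran from 10.10 to 12.17 (mean 10.98, within-group SD 0.31). Aqp1, the water channel of the apical membrane, ran from 7.20 to 9.77 (mean 7.76, SD 0.41). Folr1, the folate receptor through which folate reaches the cerebrospinal fluid, ran from 7.07 to 9.56 (mean 7.54, SD 0.33). Cldn2, the tight junction claudin of leaky epithelia, ran from 6.80 to 8.91 (mean 7.38, SD 0.30). The mean signals of Folr1 and Cldn2 lay below the array median of 7.57, so that on most arrays these probes were dim. The median of Aqp1 over the arrays, 7.61, was close to it.

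Among the secreted and regulatory genes, Kl, which encodes klotho, a co-receptor for FGF23, ran from 7.47 to 10.72 (mean 8.19, SD 0.51), a range of 9.53-fold. Sostdc1, a secreted antagonist of BMP and Wnt signals, ran from 7.42 to 10.07 (mean 7.95, SD 0.47). Otx2, the homeodomain transcription factor needed to form the choroid plexus, ran from 7.58 to 9.54 (mean 8.10, SD 0.35). The within-group SDs of these 7 genes lay between the 95.4th and 98.6th percentile of all probes, and the median over the 8 genes was 0.383.

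Over all 60 arrays, second probes mostly followed the first. The other Folr1 probe had r = 0.831 with the main probe over 60 arrays, the other Cldn2 probe r = 0.818, and the further Aqp1 probes r = 0.823 and 0.652. Both Folr1 probes and both Cldn2 probes were highest on the third tianeptine array at 1 h. They were next highest on the second fluoxetine array at 1 h, so that their r values rest in part on these arrays. Whether the probes follow each other without these arrays was not tested. The second Kl probe, ILMN_2930843, had r = 0.111, and its signal stayed between 6.79 and 7.45. All statements on Kl therefore rest on 1 probe, ILMN_1253148.

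The promoter set used here listed RefSeq start sites of GRCm38.p6 for Kl, Aqp1, Cldn2, Otx2 and Kcnj13. It held none for Ttr, Clic6, Folr1, Sostdc1 and Enpp2, which is a gap of this set and says nothing on RefSeq itself. The windows of 250 bases before to 50 after the start are shown for the 3 measured members with 1 listed start. A link between these windows and the signals was not tested. All lie on the plus strand: Kl at chr5:150952357-150952656, Aqp1 at chr6:55336049-55336348 and Cldn2 at chrX:139800558-139800857. Capitals mark the core promoter element TATAAA, the SP1 element GGGCGG and, where present, the OTX homeodomain core TAATCC on either strand.
Kl: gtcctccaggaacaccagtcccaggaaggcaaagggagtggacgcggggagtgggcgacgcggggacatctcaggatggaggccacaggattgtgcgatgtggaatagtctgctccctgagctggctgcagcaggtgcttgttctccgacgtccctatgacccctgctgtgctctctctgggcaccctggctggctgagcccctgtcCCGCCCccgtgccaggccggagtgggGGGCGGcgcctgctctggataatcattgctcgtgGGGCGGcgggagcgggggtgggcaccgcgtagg
Aqp1: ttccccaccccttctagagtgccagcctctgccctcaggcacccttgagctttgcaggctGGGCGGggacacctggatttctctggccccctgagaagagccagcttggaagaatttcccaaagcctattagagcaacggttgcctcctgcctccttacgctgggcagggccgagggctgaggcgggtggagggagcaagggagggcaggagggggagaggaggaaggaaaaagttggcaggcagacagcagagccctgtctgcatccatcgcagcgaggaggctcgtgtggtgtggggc
Cldn2: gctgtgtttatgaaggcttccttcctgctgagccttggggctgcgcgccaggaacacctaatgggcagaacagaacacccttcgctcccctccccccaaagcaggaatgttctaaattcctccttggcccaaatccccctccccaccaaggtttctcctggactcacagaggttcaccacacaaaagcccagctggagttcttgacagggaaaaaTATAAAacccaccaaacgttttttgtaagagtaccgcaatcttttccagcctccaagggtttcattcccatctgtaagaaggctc

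These windows differed in their letters. Kl held 3 matches to GGGCGG or its reverse complement CCGCCC, starting 43 and 17 bases before and at base 18 after the start, and no TATAAA. Aqp1 held 1 match to GGGCGG, and Cldn2 held TATAAA 35 bases before the start and no GGGCGG. The matches did not overlap each other. TAATCC or GGATTA was found in none of the 3 and in 1 of the 4 listed Otx2 windows. Of 32851 mouse promoter windows of the same length, 13.6% held TATAAA, 35.7% held GGGCGG and 7.06% held TAATCC on either strand. A match is a description of letters and not of a bound site.

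The 8 genes tended to be high or low together from array to array, but not on every array. The first tianeptine array at 1 h had Aqp1 at 8.46, above its median of 7.61, and Ttr at only 10.04. The third tianeptine array at 8 h had Ttr at 14.78 and Clic6 at 10.47, below its median of 10.96. For each array a score was taken as the mean over the 8 genes of log2 signal minus that gene's mean. The genes were not scaled, so that Ttr weighs most in the score and in all that is read against it. Its SD over 60 arrays was 1.68, beside 0.28 (Cldn2) to 0.50 (Kl) for the other genes. The highest score belonged to the third tianeptine array at 1 h (2.10), which held the highest value of all 60 arrays for each of the 8 genes. It was followed by the second fluoxetine array at 1 h (1.28), the third saline array at 2 h (1.00), the third saline array at 4 h (0.86) and the third fluoxetine array at 2 h (0.78). The lowest score was that of the first naive array at 1 h (-0.55), which also had the lowest Ttr. These 5 high arrays came from 4 chips, namely chips 5, 6, 8 and 9.

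Ttr, Kl and Sostdc1 are part of the score, so that the values of the groups that held these arrays are a description. In tianeptine at 1 h, Kl was at 7.97, 8.06 and 10.72, and Sostdc1 at 7.89, 7.83 and 10.07. In fluoxetine at 1 h, Kl was at 8.02, 9.55 and 7.99, and Sostdc1 at 7.73, 9.31 and 7.91. The high Kl and Sostdc1 values were those of 1 pool in each group.

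In saline at 2 h, Ttr was at 10.75, 13.74 and 15.40, with Kl at 7.83, 8.28 and 9.37 and Sostdc1 at 7.74, 8.16 and 9.21. In saline at 4 h, Ttr was at 13.81, 13.15 and 15.43, with Kl at 8.37, 8.46 and 9.15 and Sostdc1 at 8.37, 7.80 and 8.75. In fluoxetine at 2 h, Ttr was at 10.09, 11.70 and 15.12, with Kl at 8.21, 8.22 and 8.87 and Sostdc1 at 7.80, 7.97 and 8.69.

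**Figure D2:**
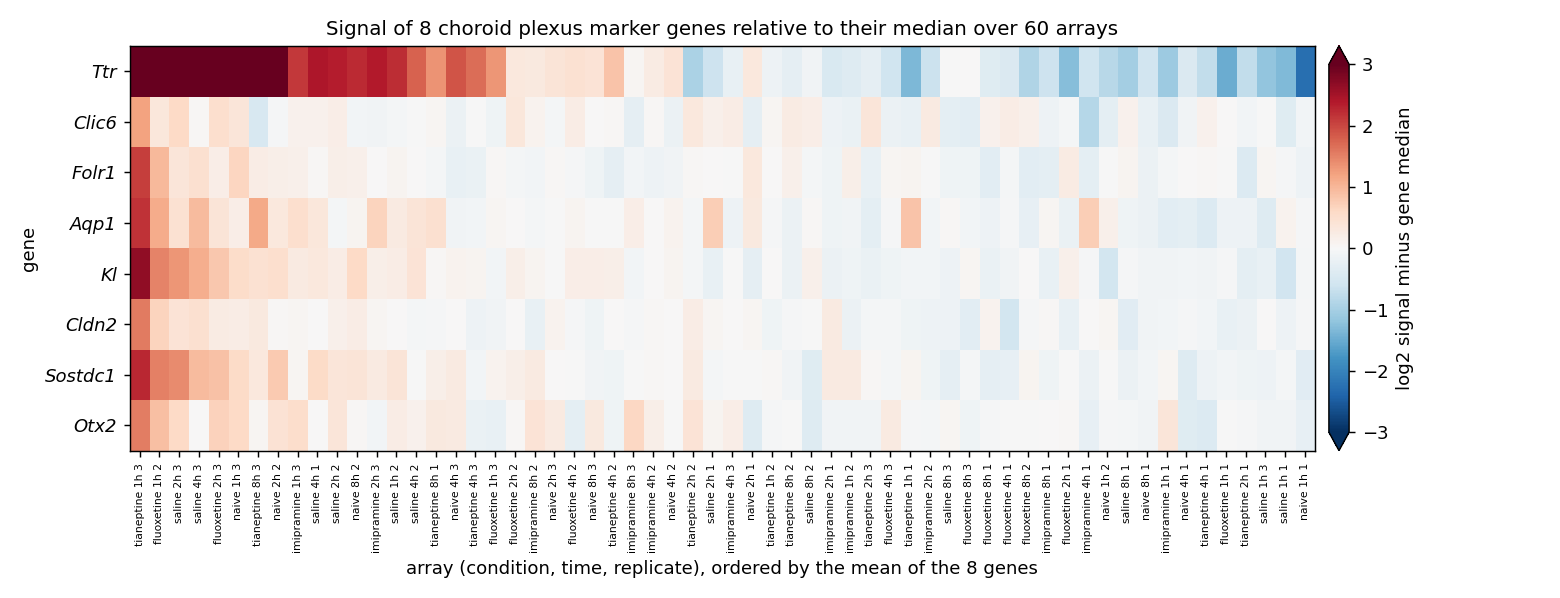
Signal of the 8 genes in all 60 arrays as log2 signal minus the gene's own median (colour, with values past 3 shown at the end of the scale), arrays ordered from the highest to the lowest mean of the 8 genes. The third tianeptine array at 1 h is highest for every gene, and red columns are found in all 5 conditions.

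On 8 arrays all 8 genes stood above their own median over the 60 arrays, and on 3 arrays none did. The 8 arrays came from 7 groups, 6 chips and all 5 conditions, and 6 of the 8 carried replicate number 3, as did 6 of the 8 arrays with Ttr above 14. The score was correlated with the array median before normalisation at r = 0.125 over 60 arrays.

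Over the 28 pairs of genes, Pearson's r ran from 0.241 to 0.898 with a median of 0.687, and 26 pairs exceeded 0.5. All pairs share the arrays, the chips and the normalisation, and these correlations are descriptions with no test. The closest pair was Kl and Sostdc1 (r = 0.898), and Ttr was closest to Kl (r = 0.803) and Sostdc1 (r = 0.795). The loosest pair was Clic6 and Aqp1 (r = 0.241). Against the mean of the other 7 genes, Kl had r = 0.924, Sostdc1 0.918, Cldn2 0.814, Folr1 0.786, Ttr 0.764, Aqp1 0.723, Otx2 0.719 and Clic6 0.521. Per log2 unit of Ttr, Kl differed by 0.24 log2 units and Clic6 by 0.07.

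Centring within chips left the median pair r at 0.695, and taking residuals from the group means left it at 0.680. Spearman's rho was lower, with a median of 0.407 and a range of -0.01 to 0.780. Without the 2 arrays farthest from the median score, the third tianeptine and the second fluoxetine array at 1 h, the median r was 0.445 and 11 pairs exceeded 0.5. Kl and Ttr then had r = 0.828, Sostdc1 and Kl 0.787 and Sostdc1 and Ttr 0.780, while Clic6 and Aqp1 had r = -0.19. Against the mean of the other 7 genes, r was then 0.272 for Clic6, 0.502 for Aqp1, 0.502 for Otx2, 0.573 for Folr1 and 0.634 for Cldn2. It was 0.859 for Kl and 0.842 for Sostdc1. Each of these was lower than over all arrays, and only Ttr was higher, at 0.830. Leaving out the third tianeptine array at 1 h alone gave a median r of 0.541.

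**Figure D3:**
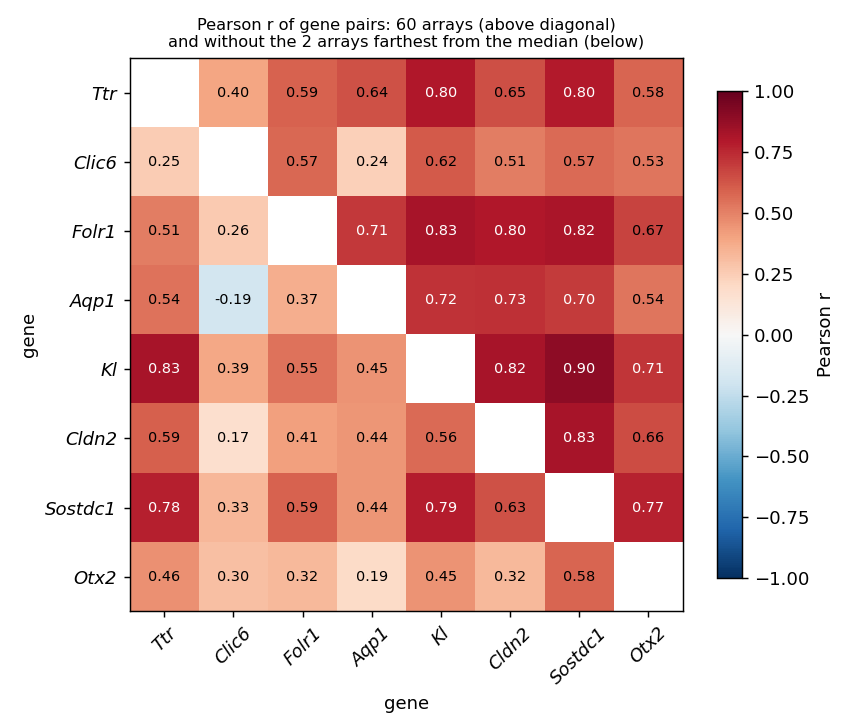
Pearson r of every pair of the 8 genes over 60 arrays above the diagonal, and over 58 arrays, without those farthest from the median score, below it. Ttr, Kl and Sostdc1 keep values of 0.78 to 0.83 below the diagonal, whereas the pairs of Clic6 fall to between -0.19 and 0.39.

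Among 11735 other gene symbols with a probe brighter than the common median, the genes most like the score were sought with all values centred within chips. Ecrg4, which encodes the secreted peptide augurin of the choroid plexus, came first (r = 0.937), followed by Kcne2, a potassium channel subunit of the same epithelium (r = 0.872). Further down stood Defb11, a beta-defensin (0.788), the collagens Col8a1 (0.787) and Col8a2 (0.742), the retinol dehydrogenase Rdh5 (0.754), the calmodulin-like Calml4 (0.745), the RNA-binding protein gene Rbm47 (0.718), the homeobox gene Msx1 (0.676) and the cytochrome oxidase subunit Cox8b (0.673). Ecrg4 ran from 8.21 to 11.31 and Kcne2 from 7.02 to 9.91. The 5 arrays with the highest score were also the 5 highest for Ecrg4, with 11.31, 10.16, 9.70, 9.69 and 9.56 beside a median of 8.57. Since Ecrg4 was named for its r with this score, the match follows largely from that choice and is no independent support. Without the 2 farthest arrays the centred r was 0.890 for Ecrg4 and 0.773 for Kcne2, and the other 8 genes lay between 0.420 (Cox8b) and 0.642 (Col8a1). The uncentred r was then 0.870 for Ecrg4 and 0.730 for Kcne2, and the other 8 genes lay between 0.258 (Rdh5) and 0.511 (Col8a1). Defb11 was brighter than the common median only through its highest array (9.09), since its mean was 7.58 with this array and 7.55 without it. Over all 45281 probes, 0.119% had a centred r above 0.5. The lowest centred r was that of 1 probe of Fam171a1 (-0.829), followed by Map1s, a microtubule-associated protein gene (-0.495), Arhgef4, a guanine nucleotide exchange factor gene (-0.481), Laptm5 (-0.478) and Actl6b, a neuronal chromatin remodelling subunit (-0.468).

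A list of 38 further genes of choroid plexus epithelium was read beside the members, of which 33 had a named probe. Their median r with the score was 0.431, 30 of 33 were above 0 and 10 were above 0.5, whereas the median over all probes was 0.0083. The list was chosen with earlier results of these data known, so that this is a description and no independent support. It also holds Ecrg4, Kcne2, Col8a1, Rdh5, Calml4, Msx1 and Cox8b, which the ranking by centred r had named. Without the 2 farthest arrays the list median was 0.253 and 5 genes were above 0.5 (Ecrg4, Wfdc2, Kcne2, Col8a1 and Calml4). Ecrg4 (r = 0.934), Wfdc2 (0.898), a secreted protease inhibitor-like protein, and Kcne2 (0.862) were closest. The lowest was Slco1a5, an organic anion transporter gene, at -0.22, and Slc4a2 (0.01) and Vat1l (-0.02) were near 0. The mean of the list stood 0.68 log2 units above its average in the third tianeptine array at 1 h and 0.31 in the second fluoxetine array at 1 h.

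Ependymal genes, of the ciliated cells that line the ventricles, had a median r of 0.192 over 17 of 20 genes, with 16 above 0 and none above 0.5. Rsph1 (0.486), Mia (0.422) and Tekt1 (0.393) were the highest, and Foxj1, the ciliary master regulator, had r = 0.06. The mean of the ependymal list stood at 0.30 in the third tianeptine array at 1 h, its highest value, and at 0.04, 0.04, -0.14 and -0.04 in the next 4 arrays by score.

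The remaining lists had medians of r near or below 0. Leptomeningeal and perivascular fibroblast genes had a median r of 0.06 (18 of 18 genes), with 10 above 0, Cemip (0.381), Igfbp2 (0.321) and Igf2 (0.190) highest and the collagen genes Col3a1 (-0.34) and Col1a2 (-0.28) lowest. Genes of septum and thalamus, which adjoin the ventricle, had 0.07 (11 of 11), with 7 above 0, from Zic4 (0.221), Slc17a6 (0.199) and Prkcd (0.180) down to Tnnt1 (-0.18). Cortical excitatory neuron genes had -0.01 (12 of 13), with 4 above 0, from Rspo1 (0.05), Lamp5 (0.03) and Tbr1 (0.02) down to Slc30a3 (-0.14). Medium spiny neuron genes had -0.04 (13 of 15), with 5 above 0, from Isl1 (0.209), Syndig1l (0.134) and Drd2 (0.128) down to Penk, which encodes proenkephalin (-0.40).

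Among glial and vascular lists, the median r was at most 0.01. Microglial genes had a median r of -0.11 (11 of 12), with 2 above 0, from C1qc (0.212), Itgam (0.07) and Aif1 (-0.02) down to Ctss (-0.24) and the receptor gene Csf1r (-0.29). The mean of the microglial list had r = -0.32 with the score, and -0.17 without the 2 arrays farthest from the median score. Astrocyte genes had -0.02 (11 of 11), with 5 above 0, from Gja1 (0.310), Aqp4 (0.152) and Slc1a3 (0.09) down to S100b (-0.28), and the list mean had -0.25, but 0.09 without the 2 farthest arrays. Oligodendrocyte genes had -0.06 (13 of 14), with 5 above 0, from Ugt8a (0.363), Mbp (0.206) and Mobp (0.112) down to Opalin (-0.29), and the list mean had -0.19. Endothelial genes had 0.01 (12 of 12), with 7 above 0, from Tek (0.320), Itm2a (0.145) and Kdr (0.121) down to Esam (-0.22). Red blood cell genes had -0.11 (5 of 7), with 1 above 0, from Hbb-b2 (0.03), Hbb-bt (-0.07) and Hbb-bs (-0.11) down to Hba-a1 (-0.18). None of these lists held a gene with r above 0.5.

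**Figure D4:**
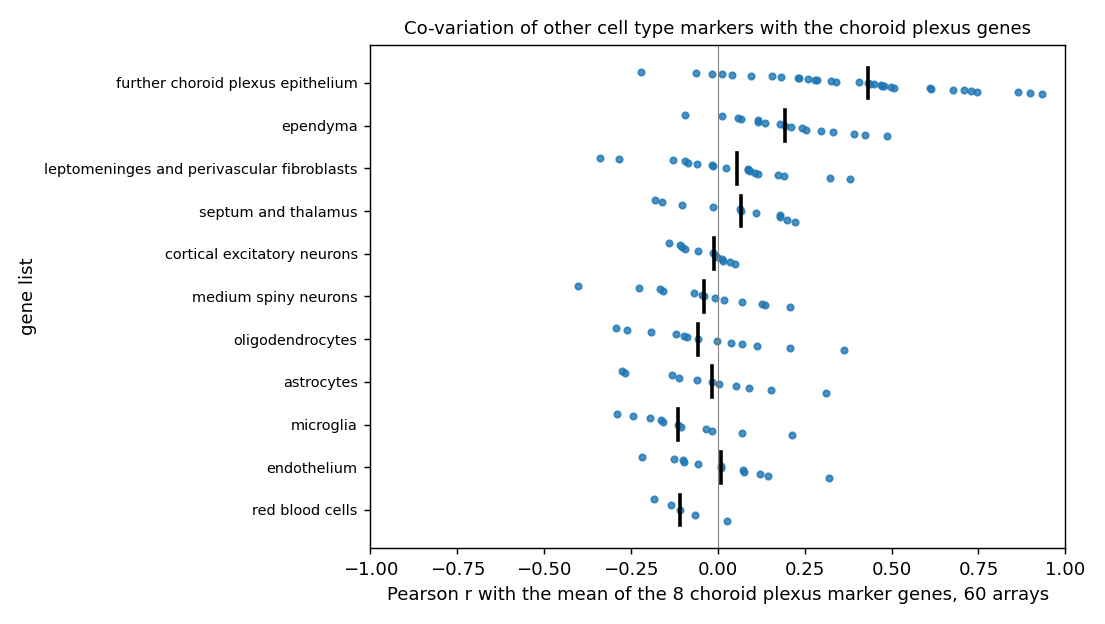
Pearson r of each listed gene with the mean of the 8 choroid plexus genes over 60 arrays (x axis), 1 row per gene list, 1 point per gene and a black bar at the list median. Only the list of further choroid plexus epithelium reaches above 0.5, with 10 of 33 genes and a median of 0.431. The lists were chosen with earlier results of these data known.

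Whether the genes differed between the study's groups was asked with moderated F tests and contrasts in limma. For condition, 0 of the 8 genes passed an adjusted p of 0.05, beside 0.307% of all probes. For time 0 passed, beside 1.46%, and for the interaction 0 passed, beside 0.00221%. At an unadjusted p under 0.05 the counts were 1 for condition (Clic6, limma adjusted p = 0.671), beside 6.97% of all probes, and 2 for time (Folr1, adjusted p = 0.233, and Sostdc1, adjusted p = 0.463), beside 10% of all probes. For the interaction it was 1 (Aqp1, limma adjusted p = 1.00), beside 4.09%. For Ttr the adjusted p-values were 0.987 for condition, 0.944 for time and 1.00 for the interaction. For Kl they were 1.00, 0.933 and 1.00, for Cldn2 1.00, 0.801 and 1.00, and for Otx2 1.00, 0.667 and 1.00. A p above the threshold does not show equal levels, since the median SE of a single-time difference was 0.116 over all probes and 1.18 to 1.22 for Ttr.

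Folr1 had mean signals of 7.76 ± 0.58 at 1 h, 7.54 ± 0.21 at 2 h, 7.44 ± 0.19 at 4 h and 7.42 ± 0.17 at 8 h (SD, n = 15 each), and the ranges of the 4 times overlapped. Its highest value at 1 h, 9.56, was that of the third tianeptine array. Without the second tianeptine array at 1 h, Folr1 passed for time (limma adjusted p = 0.0463), and with any other single array left out no gene passed any of the F tests.

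In the 16 single-time comparisons no gene passed. All calls over the whole array were 5 probes for saline against naive at 1 h (0.011%) and 2 for tianeptine at 2 h (0.00442%), and 0% in the other 14. At an unadjusted p under 0.05, 9 of the 128 gene by comparison pairs were found, beside 4.24% of all probe by comparison pairs. The groups of 3 did not overlap in 23 of the 128, beside 7.94% of all. The genes are correlated and the 3 drugs share the saline arrays, so that these pairs are not independent.

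**Figure D5:**
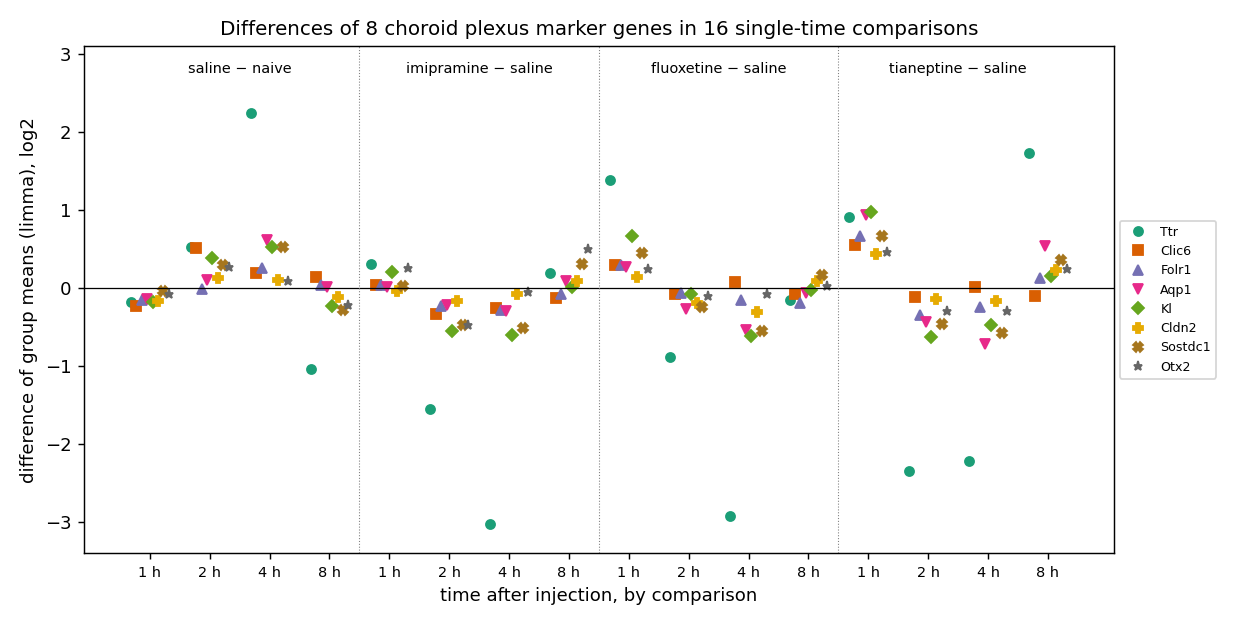
Difference between group means for each of the 8 genes (symbols) in the 16 single-time comparisons, in log2 units from the limma fit (y axis), by comparison and time (x axis). The genes mostly fall on the same side of 0 within a comparison, Ttr reaches from -3.03 to 2.24, and no point passed an adjusted p of 0.05.

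Saline was compared with naive mice to read the response to injection. The median difference of the 8 genes was -0.16 at 1 h (0 of 8 higher), 0.28 at 2 h (7 of 8 higher), 0.39 at 4 h (8 of 8 higher) and -0.17 at 8 h (3 of 8 higher). The median over all probes lay between -0.00192 and 0.000679. Quantile normalisation holds that median near 0, so that it does not measure how far a set of 8 genes may stray. At 1 h the smallest p belonged to Clic6 (-0.22 ± 0.21, SE, limma adjusted p = 0.918) and Cldn2 (-0.17, adjusted p = 0.940). At 2 h they belonged to Clic6 (0.51 ± 0.21, 95% confidence interval 0.09 to 0.94, limma adjusted p = 0.957) and Kl (0.38, adjusted p = 1.00). At 4 h they belonged to Aqp1 (0.62 ± 0.30, interval 0.01 to 1.22, limma adjusted p = 1) and Ttr (2.24 ± 1.18, interval -0.12 to 4.61, adjusted p = 1), and at 8 h to Ttr (-1.03) and Otx2 (-0.22), both with a limma adjusted p of 1.00.

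At 4 h the 3 Ttr values in saline were 13.81, 13.15 and 15.43 and in naive mice 10.95, 11.79 and 13.26, so that the groups overlapped. The 1 chip with both groups at this time gave a Ttr difference of 2.86 between its single arrays and an Aqp1 difference of 0.62. At 8 h the chip with both groups gave a Ttr difference of -2.33. Without the third naive array at 1 h, the median difference there was 0.12 with 5 of 8 genes higher. With the third saline pool left out, the median difference was -0.0080 at 2 h and 0.20 at 4 h.

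For imipramine against saline the median difference was 0.04 at 1 h (7 of 8 higher), -0.41 at 2 h (0 of 8 higher), -0.28 at 4 h (0 of 8 higher) and 0.09 at 8 h (6 of 8 higher). At 4 h Ttr was at 10.77, 11.62 and 11.17 in imipramine, below all 3 saline arrays, with a difference of -3.03 ± 1.22 (interval -5.47 to -0.58, limma adjusted p = 0.999). Kl differed by -0.61 there (adjusted p = 0.999). At 1 h the smallest p belonged to Otx2 (0.26) and Kl (0.21), at 2 h to Otx2 (-0.47) and Clic6 (-0.34), and at 8 h to Otx2 (0.50) and Sostdc1 (0.31), with a limma adjusted p of 1.00 each. Imipramine and saline shared no chip at any single time, so that a within-chip value could not be had and the chip term of the fit rested on the other groups. With chip as a fixed block the Ttr difference at 4 h was -2.97. Without the third imipramine array at 1 h the median difference was -0.02 with 4 of 8 genes higher, and without the first imipramine array at 8 h it was -0.0047, again with 4 of 8 higher.

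For fluoxetine against saline the median difference was 0.29 at 1 h (8 of 8 higher), -0.15 at 2 h (0 of 8 higher), -0.43 at 4 h (1 of 8 higher) and -0.05 at 8 h (3 of 8 higher). At 4 h Ttr was at 10.93, 11.83 and 10.77, again below all saline arrays, with a difference of -2.92 ± 1.18 (interval -5.29 to -0.55, limma adjusted p = 1.00), and the 1 chip with both groups gave -1.32. Aqp1 differed by -0.54 there (adjusted p = 1.00). At 1 h the smallest p belonged to Kl (0.66) and Clic6 (0.29), at 2 h to Cldn2 (-0.19) and Aqp1 (-0.27), and at 8 h to Folr1 (-0.20) and Sostdc1 (0.17), with a limma adjusted p of 1.00 each. Without the second fluoxetine array at 1 h, the median difference there was -0.06, with 2 of 8 genes higher, and at 8 h the median turned to between 0.015 and 0.048 without the first fluoxetine array, the first saline array or the third saline array.

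For tianeptine against saline the median difference was 0.67 at 1 h (8 of 8 higher), the largest of the 16, -0.39 at 2 h (0 of 8 higher), -0.38 at 4 h (1 of 8 higher) and 0.24 at 8 h (7 of 8 higher). At 1 h, 4 of the 8 genes were higher at an unadjusted p under 0.05, beside 4.47% of all probes in either direction and 2.07% in this direction, and 0 passed the adjusted threshold. Aqp1 was at 8.46, 7.58 and 9.77 in tianeptine and at 7.71, 7.87 and 7.22 in saline, with a difference of 0.94 ± 0.31 (interval 0.31 to 1.56, limma adjusted p = 0.999). Kl was at 7.97, 8.06 and 10.72 against 7.47, 8.27 and 7.84, with a difference of 0.98 ± 0.37 (SE, limma adjusted p = 0.999). The groups overlapped for both genes, and only the third tianeptine array stood clearly above the saline arrays for Kl. Without this array the median difference was -0.04 with 3 of 8 genes higher, the Aqp1 difference 0.39 and the Kl difference 0.11, and 0 genes had an unadjusted p under 0.05.

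At 2 h the smallest p for tianeptine belonged to Ttr (-2.34 ± 1.22, limma adjusted p = 1.00) and Kl (-0.62), at 4 h to Aqp1 (-0.71 ± 0.31, interval -1.34 to -0.09, limma adjusted p = 1.00) and Ttr (-2.22), and at 8 h to Aqp1 (0.54) and Ttr (1.72). Tianeptine and saline likewise shared no chip at any single time, and with chip as a fixed block the Ttr difference was -1.98 at 2 h. The differences of all 3 drugs at 2 h and at 4 h were taken against the same saline arrays, which included the third and the fourth highest scores. With the third saline pool left out at 4 h, the median differences were -0.16 for imipramine, -0.22 for fluoxetine and -0.24 for tianeptine. With the third saline pool left out at 2 h, they were -0.14, 0.02 and -0.19.

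Averaged over the 4 times, 0 of the 8 genes passed in any of the 4 comparisons. The whole array held 4 calls for saline against naive (0.00883%), 12 for tianeptine against saline (0.0265%) and 0% for the other drugs. No gene had an unadjusted p under 0.05 in any of the 32 gene by comparison pairs, beside 5% of all probe pairs. The median differences were 0.12 for saline against naive, -0.15 for imipramine, -0.04 for fluoxetine and 0.04 for tianeptine against saline. Single arrays decided some of these medians. Without the third tianeptine array at 1 h the tianeptine median was -0.13 with 0 of 8 genes higher, and without the second tianeptine array at 2 h it was -0.000895. With the third saline pool of 2 h left out, the saline median was 0.016, and with 1 array left out the fluoxetine median ran from -0.13 (without the second array at 1 h) to 0.025 (without the third saline array at 2 h). Of the 20 single-time and averaged comparisons, 10 had a median difference whose sign turned when 1 array was left out.

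On these averages the smallest p belonged to Clic6 (0.15 ± 0.10, SE, limma adjusted p = 0.952) and Aqp1 (0.15, adjusted p = 0.983) for saline against naive. They belonged to Ttr (-1.02 ± 0.57, interval -2.16 to 0.12, limma adjusted p = 1.00) and Clic6 (-0.17) for imipramine, to Ttr (-0.64 ± 0.57) and Aqp1 (-0.15) for fluoxetine, and to Ttr (-0.48 ± 0.57) and Clic6 (0.09) for tianeptine. Of 12 arrays, 4 lay above the saline mean of Ttr at their own time in each of the 3 drugs. In 24 tests of whether an effect differed between 1 time and another, the smallest adjusted p of any of the 8 genes was 0.828.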

How the data were processed

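The deposited log2 signals of 60 arrays, made by the authors with BeadStudio v3.0 and the beadarray package v1.10.0 and not normalised between arrays, were quantile normalised. Whether background was subtracted in this table is not stated, and no genome build enters it. The deposited series matrix, which the authors quantile normalised, served as an alternative. Of the deposited signal columns, 0 were left unused, and detection values were not used, which leaves signal over background unknown. The number of arrays limits the precision.

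A mean for each of 20 groups was fitted to 45281 probes in limma 3.58.1 (R 4.3.3, statmod 1.5.0), with the 10 chips of 6 arrays as a random block (correlation 0.201) in place of the methods' standardisation of batches. Groups came from the labels and chips from the array identifiers. Tests were 2-sided, with Benjamini-Hochberg adjustment over all probes of a comparison and a threshold of 0.05. Probes were named from the platform annotation, in which 34885 had 1 symbol, 18 several and 10378 none. The pipeline was tested on simulated data.

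The members and gene lists were chosen with earlier results of these data known. In each comparison the 2 genes with the smallest p were named, and single values were given for the groups that held the 5 arrays with the highest score. Genes like the members were ranked by centred r over symbols brighter than the common median (the 10 highest and 5 lowest), and 3 genes of each list by r. Alternatives covered values, normalisation, background, chip and replicate terms, dim probes, the methods' t-test and each array left out.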

Additional observations from a re-analysis of the deposited data

How the results depend on the processing

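No gene passed an adjusted p of 0.05 in any comparison under the series matrix values, median scaling, normexp background, chip as a fixed block or no chip block, z-scores within chips, bright probes only, the next brightest probe, or single-time fits of the 2 groups alone. The methods' t-test found 8 of 128 gene by comparison pairs under 0.05 unadjusted, beside 3.74% of all pairs, and 0 after Benjamini-Hochberg. Bright probes kept 6 of the 8 main probes. The median pair correlation was 0.407 as Spearman's rho and 0.445 without the 2 arrays farthest from the median score, against 0.687, and the cause was not tested. With z-scores the averaged Aqp1 difference of saline from naive was -0.031 SD units. The second Kl probe gave -0.11 for imipramine at 1 h and 0.052 for tianeptine at 2 h.

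With single arrays left out, the median difference for tianeptine at 1 h ran from -0.040 to 1.03, the averaged Clic6 difference for tianeptine from -0.033 to 0.16, the Kl difference of saline from naive at 2 h from -0.033 to 0.67, and the number of genes called for time from 0 to 1. A fit with a replicate block changed no call, and gave 0.93 for Aqp1 with tianeptine at 1 h. Deviations of arrays with the same number correlated at 0.130 on average, from -0.62 to 0.64, with 56.0% of pairs above 0.1, and 40 of 60 arrays correlated best with their own number. The average r was -0.064 for different numbers, which follows largely from the same-number average, since deviations from a group mean cancel within the group. It was 0.072 for the same number on different chips and 0.447 for arrays of the same chip and different number. Not every pair exceeded 0.1, and the numbers were not taken as pairing the arrays, though number went with Ttr and in part with chip.

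Dim probes limit Folr1 and Cldn2, the top of the scale limits Ttr, and detection values were not used. Aqp1, with a median of 7.61, also lay close to the common median of 7.57. Groups of 3 pools leave SEs of 1.18 to 1.22 log2 units for single-time Ttr differences.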

Other observations

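Of the genes that ran against the choroid plexus score, 1 probe of Fam171a1 stood apart from the rest of the ranking. Its log2 signal was 9.27 in the third tianeptine array at 1 h and 9.75 in the second fluoxetine array at 1 h, the 2 lowest of the 60 values, beside a median of 10.79. In the next 3 arrays by score it was 10.53, 10.68 and 10.77, all below that median as well. The probe was named for its r with this score, so that these values are a description. Without the 2 farthest arrays its centred r was -0.678 and its uncentred r was -0.473. The other Fam171a1 probes had centred r values of -0.444 and -0.208, so that the 3 probes of this gene differed in how they followed the score.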
